A study of Mus musculus with 32 samples.

Results

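Liver was compared between Smim30 knockout mice, whose libraries are named Mut, and wild-type mice (WT). The 4 Mut and 4 WT liver libraries were chosen by their tissue and genotype labels and are 8 of the 32 libraries of the series, which also holds brown adipose tissue (BAT), heart and skeletal muscle of both genotypes. All mice were males of the C57BL/6J strain, each liver came from its own mouse and was frozen in liquid nitrogen, and no treatment other than genotype is named. The sources used here give neither the age of the mice nor the allele and how it was made. RNA abundance is given in TPM, a unit corrected for transcript length and scaled to a fixed sum in each library, summed here over the transcripts of each gene.

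Smim30 encodes a small membrane protein with little room beyond its membrane segment. Hepatocytes, the main cells of liver, take up and burn fatty acids, make cholesterol, bile acids and most plasma proteins, and modify drugs and steroids with cytochromes P450, glutathione transferases and sulfotransferases. Many of these genes respond to pituitary growth hormone, to insulin and to sterol levels, and several differ between male and female mice. Kupffer cells are the resident macrophages of liver, and stellate cells make most of its collagen.

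The hepatocyte gene Alb (serum albumin) was the liver marker checked first, at 57012 ± 8985 TPM in Mut and 57415 ± 4705 TPM in WT (SD, n = 4 each), and every library carried hepatocyte RNA in bulk. The 12 hepatocyte markers summed to 81837 to 113620 TPM in Mut and 92621 to 106230 TPM in WT. By the mean of log2 values 9 were lower in Mut (10 with median-ratio scaling), whereas 69.0% of all genes tested were higher. None of the 12 was called, and the groups did not overlap for 1, Apoa1, lower in Mut. Between 11574 and 12431 genes reached 1 TPM per library, and mitochondrially encoded genes took 11.4% to 14.6% of the TPM in Mut and 10.1% to 13.9% in WT. Genes of other tissues were not all absent. Of 19 markers of adipose tissue, skeletal muscle and pancreas 7, among them Prss1 and Pnlip, stayed under 0.1 TPM in every liver library, but muscle genes such as Acta1 (277 ± 30.2 TPM in Mut and 273 ± 10.3 TPM in WT) and Tnnt3 (321 ± 35.8 TPM in Mut and 302 ± 7.43 TPM in WT) and the elastase gene Cela1 (38.2 ± 9.71 TPM in Mut and 44.9 ± 9.45 TPM in WT) did not. The 19 summed to 981 to 1188.5 TPM in Mut and 1014 to 1090.0 TPM in WT, the groups overlapped for each of them, and none of the 10 tested was called. The source of this RNA was not tested. In whole tissue, more cells of a type and more RNA per cell cannot be told apart. Macrophage markers varied between libraries within each genotype. Their summed TPM was 175, 233 and 540.1 in Mut (lowest, median and highest library) and 74.3, 115 and 279 in WT, with the highest value of each genotype in its replicate 4. Of 14 tested macrophage markers 13 had a higher mean TPM in Mut, the exception being Cd163 (3.82 ± 1.27 TPM in Mut and 4.16 ± 3.09 TPM in WT), and 1, Cd68, passed the test. By the mean of log2 values all 14 were higher, and 12 with median-ratio scaling. The T cell CD3 chain genes Cd3d, Cd3e and Cd3g stayed at or under 0.359 TPM in every library. The T cell receptor chain genes reached 0.828 TPM (Trac, WT 3), 0.805 TPM (Trbc1, Mut 4) and 1.18 TPM (Trbc2, Mut 4) at most.

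Smim30 (2610001J05Rik in the annotation, chr6:13867735-13871518) was read first. Its RNA measured 25.6, 20.6, 17.3 and 20.9 TPM in the Mut libraries, against 18.6, 25.5, 22.5 and 26.4 TPM in the WT libraries. The 2 groups overlapped, and an exact two-sided permutation test of log2(TPM + 1), run over the 70 ways to assign the 8 libraries, gave p = 0.429 (log2 difference -0.13, smallest possible p 0.0286). The RNA level therefore does not check the genotype labels in liver. Of 46 tested genes within 10 Mb of it, 4 were called (8.7%), against 4.16% of all genes tested. They were Mdfic, Col1a2, Pon3 and Cped1, all higher in Mut, as were 90.8% of all calls.

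Genome-wide, rises in Mut far outnumbered falls. Of 11994 genes averaging 1 TPM or more, 499 passed limma's test at a Benjamini-Hochberg adjusted p under 0.05 (4.16%), 453 of them higher in Mut (3.78%) and 46 lower (0.384%). The Mut libraries lay wholly above the WT libraries for 1712 genes (14.3%) and wholly below for 254 (2.12%), and 452 of the 453 rises and 44 of the 46 falls were among these. Most rises were small. Their median log2 fold change was 0.54, with 60 above 1 and 184 under 0.5, and the median of the falls was -0.66, with 13 below -1. Levels were ordinary, since the median TPM was 11.9 for rises, 12.5 for falls and 10.1 over all genes tested.

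The excess of rises depended on how libraries were scaled. Over all genes tested the median of the log2 fold changes was 0.10, and 69.0% of genes were higher in Mut. Median-ratio scaling, which sets the typical gene of each library equal, moved the median by 0.10, to -0.0044, with shifts that differed between genes. It called 152 genes higher (1.27%) and 119 lower (0.993%), so that 56.1% of calls were rises, against 90.8% on the deposited scale. All 152 of these rises were among the 453, and 44 of the 46 falls kept their call. Counts of higher or called members of a gene list are therefore to be read against 69.0% and 4.16% of all genes. The lists and their members were chosen with earlier results of these data known, so list shares are descriptions and no independent comparison. Changes also went with transcript length: genes called higher had a median abundance-weighted length of 2773 nt, those called lower 1345 nt and all tested genes 2332 nt. With genes ranked by length and split into 5 equal bins, 49.3% were higher in Mut in the bin of shortest genes and 82.4% in the bin of longest genes. The part of length and scaling in single calls was not tested beyond this.

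**Figure D1:**
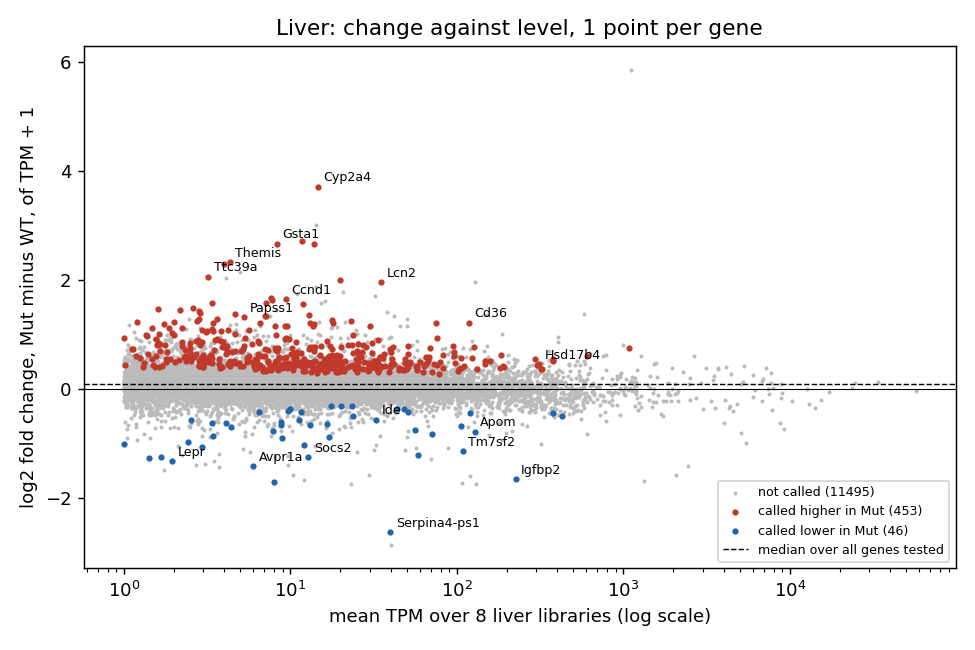
Log2 fold change of TPM + 1 in liver (Mut minus WT, y axis) against the mean TPM over the 8 libraries (x axis, log scale), 1 point per gene tested. The 453 genes called higher lie mostly between 0.3 and 1 and reach 3.72 (Cyp2a4), the 46 called lower reach -2.62 (Serpina4-ps1), and the dashed line marks the median over all genes (0.10). The grey point at 5.87 is Gm28439, a provisional gene named after its value was seen (adjusted p = 0.138).

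The count was sensitive to the loss of 1 library: without Mut 1 the test called 32 genes, and without WT 3 it called 22, of which 28 and 22 were among the 499. Any such loss also leaves a smaller group to test, and the counts ran from 22 to 390. Of the 499, 14 kept their call under every alternative setting in which they were tested, including the loss of any 1 library. Of 94 called genes described below, 70 lost their call without Mut 1 and 72 without WT 3, and none changed sign. Of the 14 genes that kept every call, the rises were Ttc39a, Papss1, Scamp5, Themis, Gpat3, Aox1, Slc13a3, Capn1, Orm3, Lgals3bp, Ccl2 and Wdfy1. The falls among these 14 were Avpr1a and Ide. Of the 499 called genes, 96 are in 1 or more of the gene lists used, and 403 (372 higher and 31 lower) are in none.

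Papss1 and Ttc39a had the smallest p-values. Papss1 (chr3:131564768-131643671), which makes PAPS, the sulfate donor of all sulfotransferases, measured 9.29, 7.45, 7.39 and 7.85 TPM in the Mut libraries, against 2.05, 3.13, 2.53 and 2.65 TPM in the WT libraries. Every Mut library held more than 2 times the highest WT value (log2 fold change 1.33, SE 0.11, adjusted p = 0.00333). Of 20 tested genes for sulfation, it was the 1 call, and the median of the list was 0.09 (-0.03 with median-ratio scaling), near that of all genes. Ttc39a (chr4:109406623-109444745), which encodes a tetratricopeptide repeat protein, measured 8.43, 4.96, 4.41 and 5.59 TPM in the Mut libraries, against 0.539, 0.821, 0.520 and 0.514 TPM in the WT libraries (log2 fold change 2.07, SE 0.17, adjusted p = 0.00333). The groups lay far apart. An annotated antisense RNA, Ttc39aos1, was called higher as well, and whether reads were assigned by strand is not stated.

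**Figure D2:**
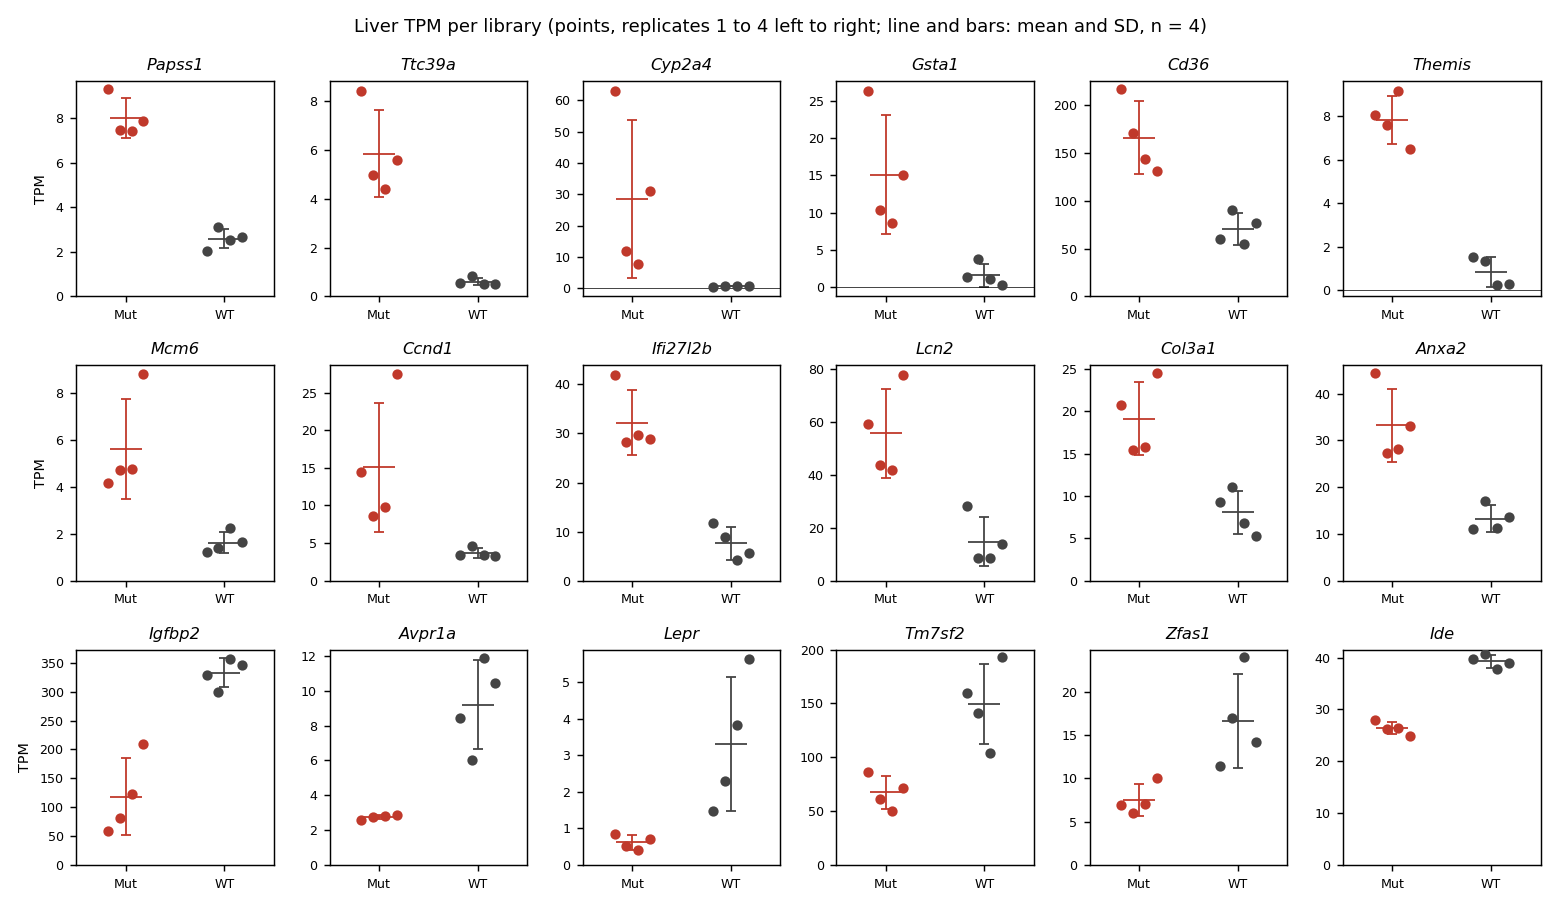
TPM in each liver library for 18 genes, with the Mut libraries (left, red) and WT libraries (right, grey) as points in replicate order and the mean and SD (n = 4) as line and bars. In the first 12 panels all Mut points lie above all WT points, as for Papss1 (7.39 to 9.29 TPM in Mut and 2.05 to 3.13 TPM in WT), and in the last 6 all lie below, as for Avpr1a (2.55 to 2.87 TPM in Mut and 6.01 to 11.9 TPM in WT).

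Enzymes of glutathione, quinone and glucuronide metabolism were among the rises. Gsta1 (chr9:78230656-78242684), an alpha-class glutathione transferase, measured 26.3, 10.3, 8.66 and 15.0 TPM in the Mut libraries, against 1.29, 3.83, 1.07 and 0.268 TPM in the WT libraries (log2 fold change 2.67, SE 0.42, adjusted p = 0.0191). Even its lowest Mut library exceeded 2 times the highest WT value, but its near copy Gm3776 rose with it, and reads can be split between them. Aox1, the aldehyde oxidase, measured 51.1, 44.7, 43.6 and 37.1 TPM in the Mut libraries, against 22.9, 25.1, 21.3 and 22.5 TPM in the WT libraries (log2 fold change 0.91, SE 0.10, adjusted p = 0.0114). Srxn1, which restores oxidised peroxiredoxins, averaged 28.6 ± 4.83 TPM in Mut and 15.8 ± 2.42 TPM in WT (log2 fold change 0.81, adjusted p = 0.0222), Ugdh, which makes UDP-glucuronic acid, averaged 120.1 ± 11.7 TPM in Mut and 69.3 ± 9.96 TPM in WT (log2 fold change 0.79, adjusted p = 0.0189), and Nqo1, a quinone reductase, 12.6 ± 3.07 TPM in Mut and 7.54 ± 0.840 TPM in WT (log2 fold change 0.65, adjusted p = 0.0469). The basolateral exporter Abcc3, which carries glucuronides, averaged 127 ± 21.5 TPM in Mut and 84.0 ± 9.78 TPM in WT (log2 fold change 0.58, adjusted p = 0.0434). These 6 are the called members among 37 tested genes that the transcription factor NRF2 induces against oxidants. In that list 35 were higher and none was called lower, with a median of 0.25 (0.14 with median-ratio scaling). Mut 1 had the highest list mean (0.71 above the WT mean on the log2 scale) and Mut 3 the lowest of the Mut libraries (0.21). With median-ratio scaling Nqo1 (adjusted p = 0.0771) and Abcc3 (0.0963) did not pass. Cyp2a22, a P450, measured 44.4, 27.1, 19.0 and 8.76 TPM in the Mut libraries, against 2.42, 5.35, 1.63 and 1.71 TPM in the WT libraries (log2 fold change 2.66, SE 0.44, adjusted p = 0.0222). Its groups did not overlap, with the smallest Mut value in replicate 4.

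Several genes known for higher levels in livers of female mice were higher in the male Mut livers. Cyp2a4 (chr7:26307169-26315088), a female-biased steroid hydroxylase, measured 63.1, 12.0, 7.80 and 31.1 TPM in the Mut libraries, against 0.580, 0.757, 0.639 and 0.717 TPM in the WT libraries (log2 fold change 3.72, SE 0.52, adjusted p = 0.0189). It was nearly silent in every WT library and varied widely among the Mut libraries, with Mut 1 the highest. Cyp2a5, whose sequence is close enough to share reads, averaged 589 ± 104 TPM in Mut and 430.5 ± 74.7 TPM in WT and was not called (adjusted p = 0.106). Ly6d, a surface antigen, measured 16.2, 3.51, 4.18 and 5.82 TPM in the Mut libraries, against 0.305, 1.15, 0 and 0.683 TPM in the WT libraries (log2 fold change 2.30, SE 0.40, adjusted p = 0.0235), and Hao2, a peroxisomal hydroxyacid oxidase, 9.89, 6.75, 4.43 and 1.87 TPM in the Mut libraries, against 0.627, 0.962, 1.66 and 0.950 TPM in the WT libraries (log2 fold change 1.58, SE 0.35, adjusted p = 0.0418). Mut 1 was the highest library for all 3. Rtn4, an endoplasmic reticulum shaping protein, was the fourth call among 21 tested female-biased genes, whose median was 0.39 (0.27 with median-ratio scaling) with 15 higher and 6 lower. Cyp2b9, another female-biased P450, measured 303, 281, 218 and 49.1 TPM in the Mut libraries, against 33.4, 61.3, 44.4 and 40.5 TPM in the WT libraries and did not pass (adjusted p = 0.0584). Its Mut 4 value lay inside the WT range.

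None of 31 tested male-biased genes was called, and 22 were lower, with a median of -0.17 (-0.29 with median-ratio scaling). Hsd3b5, a male-biased steroid reductase, measured 0.788, 2.36, 26.7 and 27.8 TPM in the Mut libraries, against 116, 32.1, 72.0 and 44.5 TPM in the WT libraries (adjusted p = 0.0905). Mut 1 and Mut 2 lay far below WT, whereas Mut 3 and Mut 4 lay just under the lowest WT library. The same split showed over the whole lists: relative to the WT mean on the log2 scale, the female-biased genes averaged 1.35 and 1.03 in Mut 1 and Mut 2 and 0.36 and 0.22 in Mut 3 and Mut 4, and the male-biased genes -1.31, -0.64, 0.23 and 0.04 in the same order. WT 1 had the highest male-biased mean of all libraries (0.60).

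Cd36 (chr5:17781690-17888801), a fatty acid transporter of the plasma membrane, measured 217, 171, 144 and 131 TPM in the Mut libraries, against 60.2, 90.7, 54.3 and 76.8 TPM in the WT libraries. The groups were well apart (log2 fold change 1.22, SE 0.19, adjusted p = 0.0191). Ucp2, a mitochondrial carrier that fatty acids induce, averaged 32.0 ± 6.44 TPM in Mut and 15.6 ± 3.76 TPM in WT (log2 fold change 1.00, adjusted p = 0.0250), and Hsd17b4, the multifunctional enzyme of peroxisomal fatty acid oxidation, averaged 364 ± 37.9 TPM in Mut and 263 ± 21.6 TPM in WT (log2 fold change 0.47, adjusted p = 0.0391). They were the 3 calls among 54 tested genes of fatty acid oxidation and PPARA (the nuclear receptor that fasting lipids activate). The share called in that list was 5.56%, against 4.16% of all genes, and 47 members (87.0%) were higher, against 69.0% of all genes. Its median was 0.27 (0.15 with median-ratio scaling). Crot, which prepares fatty acids for export from peroxisomes, averaged 225 ± 19.8 TPM in Mut and 145 ± 16.9 TPM in WT (log2 fold change 0.63, adjusted p = 0.0222).

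Of 31 tested genes that build peroxisomes 4 rose and none fell, among them Pex3, which places membrane proteins, the protease Lonp2, and Pex11g, a division factor. Pex3 averaged 30.2 ± 1.67 TPM in Mut and 20.8 ± 3.34 TPM in WT, and Lonp2 188 ± 13.4 TPM in Mut and 131 ± 13.0 TPM in WT. The list median was 0.20 (0.09 with median-ratio scaling), and 14 of the 31 had no overlap between groups, against 14.3% of all genes. With median-ratio scaling Hsd17b4 (adjusted p = 0.105), Crot (0.0684), Pex3 (0.0664), Lonp2 (0.0872) and Hao2 (0.0612) did not pass.

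Gpat3, a glycerol-3-phosphate acyltransferase, measured 13.9, 13.1, 11.3 and 11.9 TPM in the Mut libraries, against 5.14, 6.96, 6.23 and 6.18 TPM in the WT libraries (log2 fold change 0.93, SE 0.10, adjusted p = 0.0114). Mogat1, which acylates monoacylglycerol, measured 16.7, 8.78, 11.7 and 7.58 TPM in the Mut libraries, against 2.95, 5.20, 1.44 and 2.80 TPM in the WT libraries (log2 fold change 1.59, SE 0.29, adjusted p = 0.0254), and it was the 1 call among 36 tested genes of fatty acid and triglyceride synthesis (median 0.23, or 0.14 with median-ratio scaling), a list that does not hold Gpat3. No lipid droplet coat gene of 21 tested was called. Cidec, which fuses droplets, measured 131, 61.2, 47.9 and 50.3 TPM in the Mut libraries, against 23.1, 44.7, 19.3 and 24.3 TPM in the WT libraries (adjusted p = 0.0587). Plin2, the main droplet coat protein, measured 663, 369.5, 508 and 551 TPM in the Mut libraries, against 298, 415, 186 and 269 TPM in the WT libraries (adjusted p = 0.0719). Cidec had no overlap between groups, whereas Plin2 in Mut 2 lay below WT 2.

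Among enzymes of membrane lipids, Smpd3, a neutral sphingomyelinase, measured 5.35, 2.67, 4.15 and 5.41 TPM in the Mut libraries, against 1.11, 2.38, 0.350 and 1.21 TPM in the WT libraries (log2 fold change 1.29, SE 0.27, adjusted p = 0.0376). Sptlc2, a subunit of the first enzyme of sphingolipid synthesis, averaged 17.4 ± 3.43 TPM in Mut and 10.2 ± 0.897 TPM in WT (log2 fold change 0.70, adjusted p = 0.0274). Osbpl3, a lipid transfer protein of the oxysterol-binding family, measured 13.4, 9.39, 9.76 and 15.7 TPM in the Mut libraries, against 3.54, 4.82, 1.503 and 2.94 TPM in the WT libraries (log2 fold change 1.67, SE 0.25, adjusted p = 0.0190), and its relatives Osbpl5 and Osbpl11 rose too. The values of Smpd3 in WT were uneven, and with median-ratio scaling it did not pass (adjusted p = 0.0545).

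Of 28 tested genes of cholesterol synthesis and its regulator SREBP2, 23 were lower, with a median of -0.43 (-0.55 with median-ratio scaling), but 1 passed. That gene, Tm7sf2 (chr19:6062821-6068373), a sterol reductase, measured 86.6, 61.5, 50.03 and 71.9 TPM in the Mut libraries, against 160.0, 141, 104 and 193 TPM in the WT libraries (log2 fold change -1.13, SE 0.21, adjusted p = 0.0254). Its groups did not overlap. Cyp51, the lanosterol demethylase, measured 35.8, 12.9, 9.75 and 23.3 TPM in the Mut libraries, against 50.8, 44.4, 20.2 and 56.3 TPM in the WT libraries (adjusted p = 0.132), and Sqle, the squalene epoxidase, 13.7, 1.95, 1.01 and 4.05 TPM in the Mut libraries, against 12.8, 23.6, 3.42 and 22.1 TPM in the WT libraries (adjusted p = 0.178). In both, WT 3 was the lowest WT library and Mut 1 the highest Mut library. Over the whole list Mut 1 averaged 0.14 above the WT mean, while Mut 2, Mut 3 and Mut 4 averaged 0.64, 0.95 and 0.25 below it, and WT 3 averaged 0.68 below it.

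Cyp27a1, the mitochondrial sterol hydroxylase of bile acid synthesis, fell and averaged 320.2 ± 36.7 TPM in Mut and 433 ± 31.5 TPM in WT (log2 fold change -0.44, SE 0.10, adjusted p = 0.0460). Apom, which carries sphingosine-1-phosphate on lipoproteins, measured 87.0, 80.2, 84.8 and 129 TPM in the Mut libraries, against 146, 141, 181 and 179 TPM in the WT libraries (log2 fold change -0.78, SE 0.16, adjusted p = 0.0340), and it was the 1 call among 26 tested apolipoprotein and lipoprotein assembly genes, whose median was -0.06 (-0.17 with median-ratio scaling). Apoa1, the main protein of high-density lipoprotein, averaged 7040.2 ± 1685 TPM in Mut and 11445 ± 1180.5 TPM in WT and missed the threshold (adjusted p = 0.0561), and with median-ratio scaling it passed (0.0428).

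Solute carriers gave 15 rises and 1 fall among 209 tested genes whose symbol starts with Slc. Slc13a3, a sodium-coupled carrier of dicarboxylates, measured 14.7, 13.5, 15.2 and 9.61 TPM in the Mut libraries, against 5.12, 5.82, 4.91 and 5.14 TPM in the WT libraries (log2 fold change 1.17, SE 0.13, adjusted p = 0.0114). The zinc importer Slc39a4 averaged 19.0 ± 3.92 TPM in Mut and 6.86 ± 1.99 TPM in WT (log2 fold change 1.36, SE 0.19, adjusted p = 0.0189). Slc16a6, which exports ketone bodies in zebrafish, averaged 5.00 ± 1.04 TPM in Mut and 1.78 ± 0.468 TPM in WT (log2 fold change 1.11, adjusted p = 0.0189), and Rhbg, an ammonium transporter of pericentral hepatocytes, averaged 7.15 ± 1.72 TPM in Mut and 2.11 ± 0.565 TPM in WT (log2 fold change 1.38, adjusted p = 0.0155). At the canalicular membrane, Abcg2 averaged 87.6 ± 13.5 TPM in Mut and 51.2 ± 5.22 TPM in WT (log2 fold change 0.76, adjusted p = 0.0191) and the phospholipid flippase Abcb4 113 ± 5.02 TPM in Mut and 80.6 ± 5.70 TPM in WT (log2 fold change 0.49, adjusted p = 0.0196). Slc19a2, a thiamine transporter, was the 1 fall and averaged 38.2 ± 2.93 TPM in Mut and 49.4 ± 3.36 TPM in WT (log2 fold change -0.36, adjusted p = 0.0434). With median-ratio scaling Abcg2 (adjusted p = 0.0542) and Abcb4 (0.0584) did not pass.

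Of the 6 subunits of the MCM helicase, which opens DNA at replication origins, 5 rose, all at low levels. Mcm2 measured 3.12, 2.45, 2.35 and 4.11 TPM in the Mut libraries, against 0.866, 0.885, 1.09 and 1.11 TPM in the WT libraries (log2 fold change 0.99, SE 0.14, adjusted p = 0.0189), and Mcm6 measured 4.15, 4.72, 4.73 and 8.79 TPM in the Mut libraries, against 1.20, 1.41, 2.23 and 1.64 TPM in the WT libraries (log2 fold change 1.30, SE 0.20, adjusted p = 0.0196). The groups did not overlap for either, and Mut 4 was the highest library. Mcm5 measured 2.01, 1.56, 2.70 and 5.90 TPM in the Mut libraries, against 0.667, 0.852, 0.673 and 0.670 TPM in the WT libraries (log2 fold change 1.13, SE 0.26, adjusted p = 0.0468), Mcm3 averaged 3.96 ± 0.957 TPM in Mut and 1.66 ± 0.638 TPM in WT (log2 fold change 0.91, adjusted p = 0.0375) and Mcm4 averaged 3.16 ± 0.894 TPM in Mut and 1.48 ± 0.327 TPM in WT (log2 fold change 0.73, adjusted p = 0.0415). The last helicase subunit, Mcm7, averaged 8.41 ± 0.568 TPM in Mut and 6.89 ± 1.14 TPM in WT (adjusted p = 0.189), and Mcm10, a loading factor, averaged 61.1 ± 7.34 TPM in Mut and 80.3 ± 12.6 TPM in WT (adjusted p = 0.107). With Chaf1a and Fen1 these 5 made up the 7 calls among 46 tested replication genes, of which 41 were higher (median 0.20, or 0.09 with median-ratio scaling).

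Promoters of 3 of these subunits are shown because they hold a match to an E2F motif, named for the transcription factors that drive S-phase genes. The windows run from 250 bases before to 50 bases after the RefSeq gene start (GRCm38.p6, gene strand), and capitals mark TTTCCCGC or TTTGGCGC on either strand. The matches of Mcm3 begin 19 and 38 bases after the start, that of Mcm5 149 bases before it, and those of Mcm6 110 and 47 bases before it. None overlaps a match of the other motifs searched.
Mcm3 (chr1:20820263-20820562, minus strand): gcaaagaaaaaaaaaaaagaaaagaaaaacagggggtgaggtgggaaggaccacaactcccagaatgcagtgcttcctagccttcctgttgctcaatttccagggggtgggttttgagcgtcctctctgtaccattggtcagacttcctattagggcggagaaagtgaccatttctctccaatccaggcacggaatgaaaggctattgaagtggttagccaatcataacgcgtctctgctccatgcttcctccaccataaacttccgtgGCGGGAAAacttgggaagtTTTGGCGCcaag
Mcm5 (chr8:75109259-75109558, plus strand): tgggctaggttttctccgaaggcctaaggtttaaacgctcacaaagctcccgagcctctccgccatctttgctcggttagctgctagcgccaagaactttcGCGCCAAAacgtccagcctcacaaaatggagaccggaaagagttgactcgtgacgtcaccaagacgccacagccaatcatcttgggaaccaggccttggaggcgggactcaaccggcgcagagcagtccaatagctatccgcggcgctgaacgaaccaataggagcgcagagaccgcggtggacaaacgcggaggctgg
Mcm6 (chr1:128359656-128359955, minus strand): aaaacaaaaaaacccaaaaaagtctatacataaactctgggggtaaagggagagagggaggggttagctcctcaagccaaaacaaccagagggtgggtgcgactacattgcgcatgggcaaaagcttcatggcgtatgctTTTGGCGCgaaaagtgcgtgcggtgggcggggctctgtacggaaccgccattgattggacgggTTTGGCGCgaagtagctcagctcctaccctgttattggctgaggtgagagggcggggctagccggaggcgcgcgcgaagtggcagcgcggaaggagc
Of 38 replication genes with a RefSeq promoter, 10 held a match (26.3%), against 3.32% of 9130 tested genes with a promoter and 1.56% of all 32851 windows. Of the 6 called members with a promoter 3 did, and Mcm2, Chaf1a and Fen1 held none in this window.

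Among regulators of the cycle, Ccnd1 (chr7:144929931-144939925), cyclin D1, which moves cells from G1 to S phase, measured 14.4, 8.64, 9.84 and 27.4 TPM in the Mut libraries, against 3.43, 4.64, 3.38 and 3.26 TPM in the WT libraries (log2 fold change 1.65, SE 0.29, adjusted p = 0.0250). Mut 4 was the highest library, and the groups were well apart. Its partner kinase Cdk6 averaged 7.00 ± 1.04 TPM in Mut and 4.25 ± 0.659 TPM in WT (log2 fold change 0.61, adjusted p = 0.0352) and the transcription factor E2f1 3.22 ± 0.162 TPM in Mut and 1.84 ± 0.287 TPM in WT (log2 fold change 0.58, adjusted p = 0.0240). With E2f3 and Mad2l1 they were the 5 calls among 21 tested cyclin and mitosis genes (18 higher, median 0.23, or 0.13 with median-ratio scaling). With median-ratio scaling Mcm3 (adjusted p = 0.0565), Mcm4 (0.0569), Mcm5 (0.0654), Cdk6 (0.0748) and E2f1 (0.0503) did not pass.

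Interferon-stimulated genes, which encode antiviral sensors and effectors, had 10 calls among 55 tested, all higher, and 50 of the 55 were higher in Mut (median 0.37, or 0.28 with median-ratio scaling). For 24 of the 55 the groups did not overlap with Mut higher, against 14.3% of all genes. Ifi27l2b (chr12:103450898-103457223), a small membrane protein gene induced by interferon, measured 42.0, 28.3, 29.7 and 28.8 TPM in the Mut libraries, against 11.7, 8.99, 4.25 and 5.55 TPM in the WT libraries (log2 fold change 2.01, SE 0.26, adjusted p = 0.0154). The groups did not overlap, and Mut 1 was the highest library. Lgals3bp, a secreted glycoprotein, measured 52.5, 46.5, 47.9 and 52.9 TPM in the Mut libraries, against 32.0, 32.3, 27.1 and 31.0 TPM in the WT libraries (log2 fold change 0.69, SE 0.083, adjusted p = 0.0114). Outside the list, Samd9l, an antiviral factor, averaged 8.60 ± 1.20 TPM in Mut and 4.21 ± 0.768 TPM in WT (log2 fold change 0.89, adjusted p = 0.0190), and Ubd, a ubiquitin-like protein induced by interferon gamma, averaged 4.37 ± 1.67 TPM in Mut and 0.863 ± 0.479 TPM in WT (adjusted p = 0.0235).

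Gbp3 and Irgm1, GTPases that act on intracellular pathogens, and Oas1g, an oligoadenylate synthetase, rose by smaller amounts. Gbp3 averaged 7.42 ± 0.439 TPM in Mut and 4.80 ± 1.06 TPM in WT, Irgm1 31.2 ± 0.647 TPM in Mut and 23.8 ± 1.47 TPM in WT and Oas1g 1.66 ± 0.425 TPM in Mut and 0.717 ± 0.157 TPM in WT, and with median-ratio scaling none of the 3 passed (adjusted p = 0.088, 0.0959 and 0.0577 in that order). Gbp3 and Oas1g belong to families of close relatives that can share reads. Their promoters are shown because each holds a match to GAAA, any 2 bases, then GAAA on either strand (capitals), an ISRE-like motif named for the element that interferon-activated factors bind.
Gbp3 (chr3:142559794-142560093, plus strand): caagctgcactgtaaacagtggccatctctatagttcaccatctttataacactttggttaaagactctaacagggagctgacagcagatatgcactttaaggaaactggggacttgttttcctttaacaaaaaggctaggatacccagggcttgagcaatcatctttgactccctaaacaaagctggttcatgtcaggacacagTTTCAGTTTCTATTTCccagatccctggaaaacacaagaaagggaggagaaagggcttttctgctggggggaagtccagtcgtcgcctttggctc
Irgm1 (chr11:48871371-48871670, minus strand): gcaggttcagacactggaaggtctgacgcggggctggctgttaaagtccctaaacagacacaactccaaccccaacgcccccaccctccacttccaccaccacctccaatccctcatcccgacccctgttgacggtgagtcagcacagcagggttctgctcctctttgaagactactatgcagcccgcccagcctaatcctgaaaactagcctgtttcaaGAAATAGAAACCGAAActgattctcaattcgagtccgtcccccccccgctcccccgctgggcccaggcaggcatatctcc
Oas1g (chr5:120887564-120887863, minus strand): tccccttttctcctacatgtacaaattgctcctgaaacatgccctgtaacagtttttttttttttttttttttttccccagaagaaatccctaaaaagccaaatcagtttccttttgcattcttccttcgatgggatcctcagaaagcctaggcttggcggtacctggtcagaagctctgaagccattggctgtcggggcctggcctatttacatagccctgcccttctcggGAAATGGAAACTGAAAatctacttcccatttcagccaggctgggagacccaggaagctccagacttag
In each of them 2 overlapping matches begin before the start, at 45 and 39 bases (Gbp3), 30 and 24 bases (Irgm1) or 18 and 12 bases (Oas1g). The motif was found in 21 of 40 list members with a promoter (52.5%), against 3.7% of tested genes and 3.44% of all windows. Of the 6 called members with a promoter, Lgals3bp, Oasl1 and Parp12 held none in this window. The antioxidant response core (TGACNNNGC) was in 35.5% of 31 antioxidant promoters and 17.0% of tested genes, and the sterol regulatory element (TCACNCCAC) in 5.0% of 20 sterol promoters and 1.52% of tested genes.

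**Figure D3:**
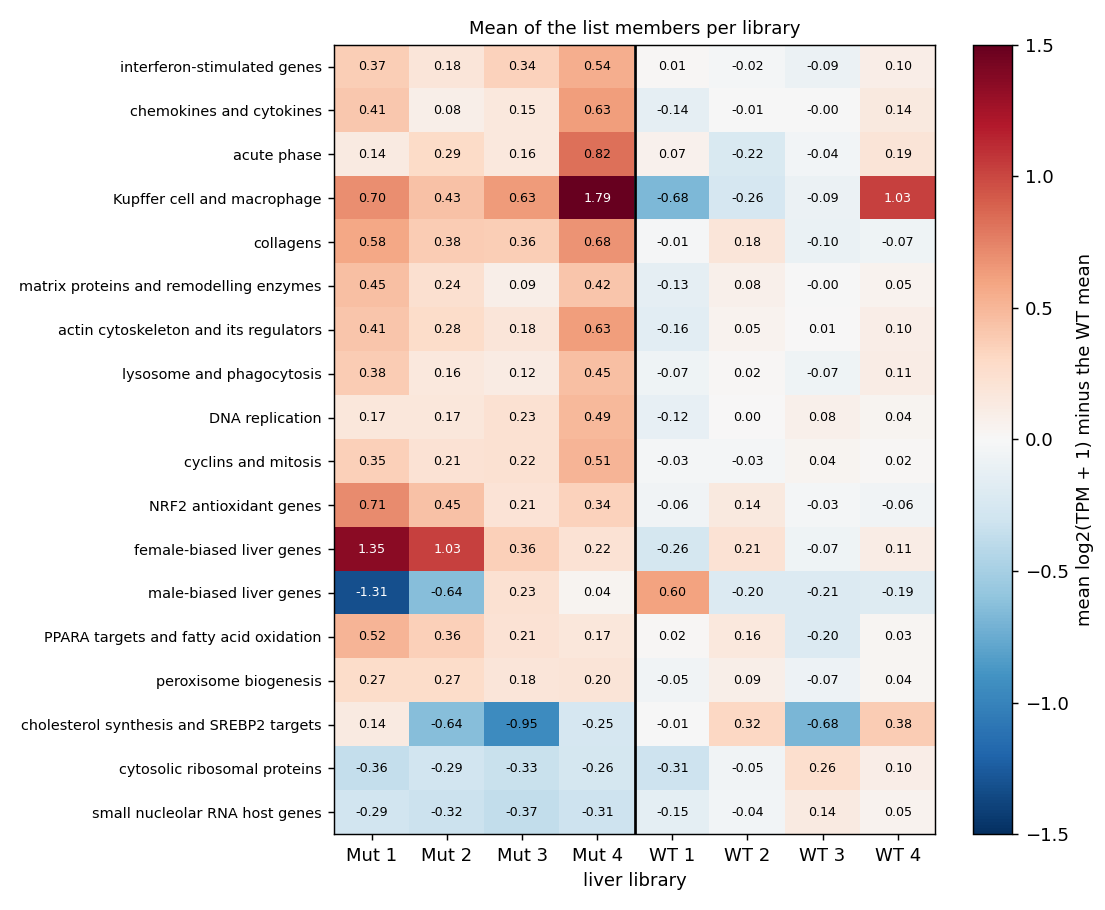
Mean over the tested members of 18 gene lists of log2(TPM + 1) minus the WT mean, in each liver library (Mut 1 to 4 left of the line, WT 1 to 4 right). Female-biased and male-biased genes depart most in Mut 1 (1.35 and -1.31), macrophage markers are highest in Mut 4 (1.79) and are also high in WT 4 (1.03), and ribosomal protein genes are as low in WT 1 (-0.31) as in the Mut libraries.

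Genes of the acute phase and of leukocyte recruitment had single large rises. Lcn2 (chr2:32384633-32388252), a siderophore-binding protein made by stressed hepatocytes, measured 59.2, 43.5, 41.9 and 77.7 TPM in the Mut libraries, against 28.0, 8.41, 8.58 and 14.0 TPM in the WT libraries (log2 fold change 1.96, SE 0.35, adjusted p = 0.0250). Orm3, an orosomucoid of the acute phase, measured 10.7, 15.8, 12.7 and 9.60 TPM in the Mut libraries, against 2.13, 2.64, 3.94 and 4.37 TPM in the WT libraries (log2 fold change 1.64, SE 0.20, adjusted p = 0.0114), and Saa3, a serum amyloid A, 13.3, 15.1, 18.4 and 28.6 TPM in the Mut libraries, against 4.41, 8.98, 8.49 and 7.69 TPM in the WT libraries (log2 fold change 1.22, SE 0.25, adjusted p = 0.0353). Orm3 and Saa3 have close relatives that can share reads. These 3 were the calls among 34 tested acute phase genes, whose median was 0.16 (0.04 with median-ratio scaling). The chemokine Ccl2, which recruits monocytes, measured 3.13, 1.93, 1.79 and 2.74 TPM in the Mut libraries, against 0.475, 0.621, 0.526 and 0.541 TPM in the WT libraries (log2 fold change 1.12, SE 0.14, adjusted p = 0.0150), and Cxcl9, which recruits T cells, averaged 10.7 ± 3.28 TPM in Mut and 3.63 ± 1.62 TPM in WT (log2 fold change 1.35, adjusted p = 0.0313). Themis (chr10:28668360-28883818), known for its role in T cell selection, measured 8.05, 7.62, 9.18 and 6.51 TPM in the Mut libraries, against 1.51, 1.32, 0.241 and 0.275 TPM in the WT libraries (log2 fold change 2.33, SE 0.24, adjusted p = 0.00840). Of the 22 T and natural killer cell markers, which include Themis, 20 averaged under 1 TPM. The list summed to 13.9 to 15.7 TPM in Mut and 4.36 to 5.43 TPM in WT, Themis included. For 5 of the 22 the Mut libraries lay wholly above the WT libraries, against 14.3% of all genes tested. They were Themis, Ccl5 (2.09 ± 0.680 TPM in Mut and 1.04 ± 0.138 TPM in WT), Nkg7 (0.549 ± 0.153 TPM in Mut and 0.233 ± 0.0495 TPM in WT), Cd2 (0.257 ± 0.0984 TPM in Mut and 0.0703 ± 0.0589 TPM in WT) and Ncr1 (0.141 ± 0.0746 TPM in Mut and 0.00803 ± 0.0161 TPM in WT). Of the 22, 2 reached the level to be tested, Themis and Ccl5. The 14.3% covers only genes that reached that level, and no such share was computed for lower genes. The part of T and natural killer cell RNA in the Themis rise was not tested. Markers of recruited monocytes summed to 58.9 to 167 TPM in Mut and 29.3 to 79.5 TPM in WT. For 6 of the 12 the groups did not overlap with Mut higher, against 14.3% of all genes tested. These 6 (Ccr2, Chil3, Cx3cr1, Gpnmb, Itgax and Ly6c2) averaged under 1 TPM and were not tested, so the 14.3% is no background for them. Of the 5 tested monocyte markers none was called, and the groups overlapped for each. B and plasma cell markers went mostly the other way: of 7 tested, 5 were lower in Mut and 2 higher. The 1 call among them, the immunoglobulin gene Ighg2b, was lower. All 9 tested red blood cell markers were higher (8 with median-ratio scaling), and none was called. Red blood cell markers summed to 1183 to 4432 TPM in Mut and 1338 to 1688 TPM in WT. The part of blood RNA in these results was not tested.

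Cd68, a lysosomal protein of macrophages, measured 8.90, 5.97, 6.68 and 10.5 TPM in the Mut libraries, against 2.65, 2.68, 2.33 and 5.62 TPM in the WT libraries (log2 fold change 1.09, SE 0.23, adjusted p = 0.0380), and with median-ratio scaling it did not pass (adjusted p = 0.0512), nor did Saa3 (0.0512). The WT 4 value lay just under the lowest Mut value. Summed macrophage markers were likewise highest in Mut 4 (540.1 TPM) and, among WT libraries, in WT 4 (279 TPM, above Mut 1 to 3), and the receptor gene Marco read 91.2 TPM in Mut 4 and at most 9.10 TPM elsewhere. Without Mut 4 the test called 248 genes higher and 45 lower, and without WT 4 it called 133 higher and 12 lower. The part of macrophage RNA in these results was not tested.

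Of 15 tested collagens 4 rose: the fibrillar Col1a1, Col1a2 and Col3a1 and the basement membrane Col4a1. Col3a1 (chr1:45311538-45349706) measured 20.8, 15.4, 15.7 and 24.5 TPM in the Mut libraries, against 9.29, 11.0, 6.77 and 5.31 TPM in the WT libraries (log2 fold change 1.16, SE 0.21, adjusted p = 0.0254), Col1a1 averaged 5.04 ± 1.46 TPM in Mut and 1.83 ± 0.406 TPM in WT (log2 fold change 1.07, adjusted p = 0.0205), and Col4a1 averaged 11.3 ± 3.15 TPM in Mut and 5.09 ± 1.07 TPM in WT (log2 fold change 1.00, adjusted p = 0.0313). Over the 15 collagens 12 were higher, and the median was 0.43 (0.33 with median-ratio scaling). All 19 tested stellate cell and fibroblast markers were higher on average (18 with median-ratio scaling), with 3 calls, all of them these collagens, and their summed level was 306 to 469.8 TPM in Mut and 245 to 358 TPM in WT. The part of stellate cell RNA in the collagen rises was not tested.

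Of 43 tested matrix proteins and remodelling enzymes 7 rose and none fell. Lamb3, a laminin chain, averaged 6.51 ± 1.24 TPM in Mut and 2.77 ± 0.828 TPM in WT (log2 fold change 1.01, adjusted p = 0.0272), the secreted phosphoprotein Spp1 (osteopontin) averaged 34.9 ± 7.26 TPM in Mut and 19.4 ± 3.42 TPM in WT (log2 fold change 0.81, adjusted p = 0.0313), and the macrophage elastase Mmp12 averaged 2.86 ± 1.47 TPM in Mut and 0.614 ± 0.0902 TPM in WT (log2 fold change 1.19, adjusted p = 0.0254). Spp1 is also made by bile duct cells, whose summed markers were 258 to 358 TPM in Mut and 222 to 256 TPM in WT, and their part was not tested. With median-ratio scaling Lamb3 did not pass (adjusted p = 0.0526). Chosen after their values were seen, 3 genes in no list also rose. Gpc1, a cell-surface proteoglycan, averaged 25.7 ± 5.23 TPM in Mut and 10.7 ± 3.41 TPM in WT (log2 fold change 1.22, adjusted p = 0.0233), and Sulf2, which trims sulfate from heparan, averaged 11.5 ± 2.65 TPM in Mut and 4.56 ± 1.10 TPM in WT (log2 fold change 1.16, adjusted p = 0.0196). Uap1l1, related to an enzyme that makes UDP-N-acetylglucosamine, averaged 4.65 ± 1.85 TPM in Mut and 1.08 ± 0.260 TPM in WT (log2 fold change 1.40, adjusted p = 0.0189).

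Annexins, actin and lysosomal hydrolases were among the rises. Anxa2, a calcium-dependent membrane-binding protein, measured 44.3, 27.3, 28.2 and 33.1 TPM in the Mut libraries, against 11.1, 17.1, 11.2 and 13.6 TPM in the WT libraries (log2 fold change 1.26, SE 0.17, adjusted p = 0.0189), and Anxa5 averaged 100.2 ± 23.2 TPM in Mut and 51.4 ± 9.75 TPM in WT (log2 fold change 0.94, adjusted p = 0.0254). Actb, cytoplasmic actin, averaged 353 ± 37.9 TPM in Mut and 240.0 ± 29.4 TPM in WT (log2 fold change 0.56, adjusted p = 0.0369). With S100a11 and Cotl1 they were the 5 calls among 44 tested genes of the actin cytoskeleton and its regulators, of which 40 were higher (median 0.27, or 0.17 with median-ratio scaling). Lgals1, galectin-1, a secreted lectin, averaged 105 ± 23.2 TPM in Mut and 44.7 ± 12.1 TPM in WT (log2 fold change 1.22, adjusted p = 0.0222), and Capn1, the protease calpain-1, 13.4 ± 0.588 TPM in Mut and 8.20 ± 0.594 TPM in WT (log2 fold change 0.65, adjusted p = 0.0114). The 5 lysosomal calls among 34 tested (27 higher, median 0.20, or 0.08 with median-ratio scaling) included Psap, which yields the saposins, Cd68 and the proton pump subunit Atp6v1a. Psap averaged 362 ± 28.0 TPM in Mut and 279 ± 10.9 TPM in WT (log2 fold change 0.37, adjusted p = 0.0410) and did not pass with median-ratio scaling (0.102). Ppt1, a lysosomal thioesterase outside the list, averaged 22.7 ± 2.06 TPM in Mut and 14.5 ± 0.707 TPM in WT (log2 fold change 0.61, adjusted p = 0.0172).

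**Figure D4:**
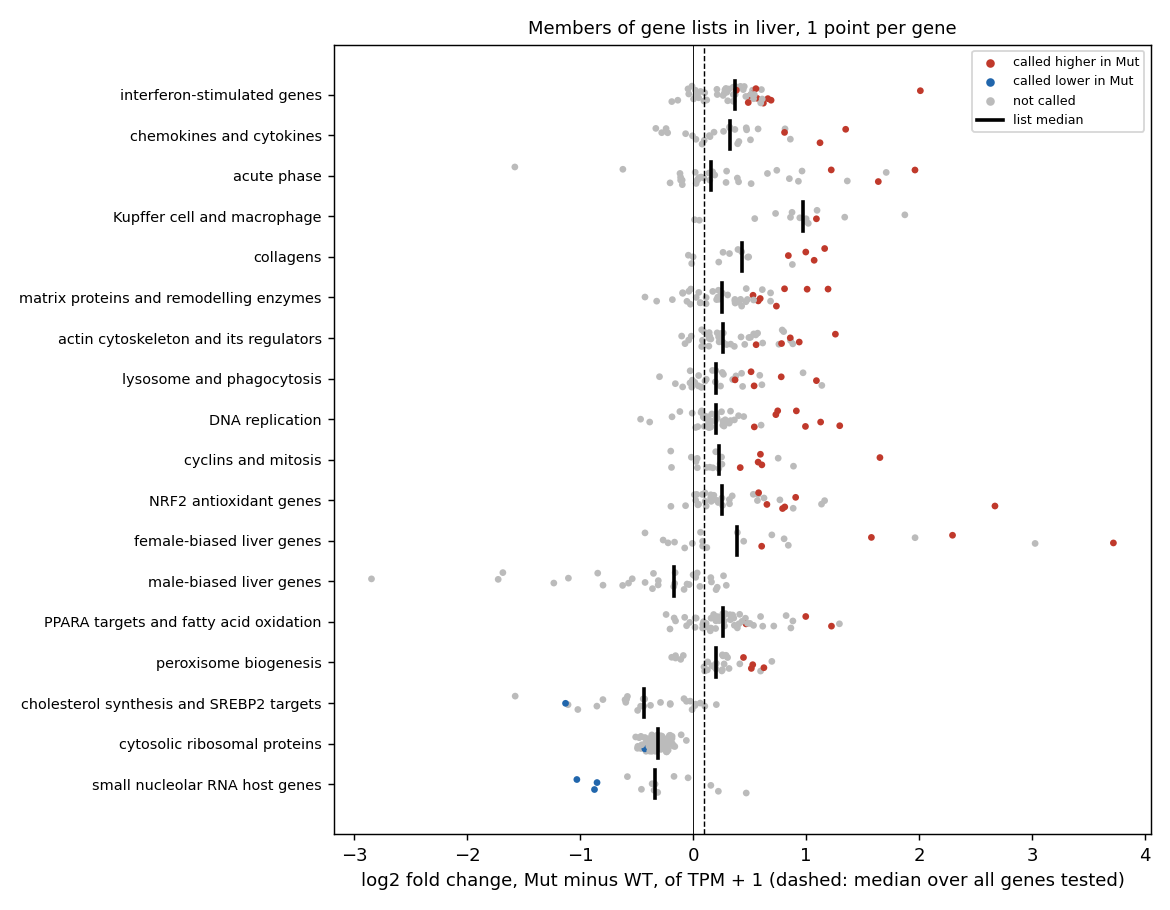
Log2 fold change of TPM + 1 (Mut minus WT, x axis) of each tested member of 18 gene lists, coloured by call, with the list median as a black bar and the median over all genes (0.10) as a dashed line. Medians run from -0.43 (cholesterol synthesis) to 0.97 (macrophage markers), most list members are not called, and all 78 ribosomal protein genes lie left of 0.

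The 372 rises in no list were grouped by known function only after their values were seen, so the groups below are descriptions without a test. Each group holds only genes already called, so its number of rises was built in. The tested genes of each function were counted for the sorting nexins alone. Genes of cilia and centrosomes gave 10 rises with log2 fold changes from 0.33 to 1.21, led by Tbc1d31, a centriolar satellite protein (9.64 ± 4.07 TPM in Mut and 3.45 ± 0.838 TPM in WT). Adhesion and axon guidance genes gave 8 rises from 0.50 to 1.56, among them the giant adhesion receptor Adgrv1 (17.7 ± 1.80 TPM in Mut and 6.06 ± 3.68 TPM in WT; adjusted p = 0.0369, and 0.0628 with median-ratio scaling) and Clstn3, a calsyntenin (19.6 ± 2.20 TPM in Mut and 8.18 ± 2.62 TPM in WT). Genes of kinase, GTPase and cyclic AMP signalling gave 7 rises from 0.39 to 1.03, including Limk1, Pik3r1 and Pde4d. Protein glycosylation genes (Pomt1, Pomk, Ispd, Stt3a and Mlec) gave 5 rises from 0.44 to 0.65. Sorting nexins, which shape endosomes, gave 4 rises among 27 tested, from 0.33 to 0.53. Sptlc2, Abcg2, Cyp2b9, Cyp2a5, Plin2, Cyp51, Gbp3, Oas1g, Ppt1 and Wdfy1 were likewise chosen after their values were seen.

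Scamp5 and Wdfy1, in no list, kept their call in every alternative setting. Scamp5 (chr9:57441327-57468060), a secretory carrier membrane protein known from neurons, measured 13.8, 11.3, 13.3 and 12.7 TPM in the Mut libraries, against 5.68, 6.16, 5.99 and 6.78 TPM in the WT libraries (log2 fold change 0.95, SE 0.087, adjusted p = 0.00409). Wdfy1, an endosomal adaptor, measured 14.2, 13.8, 14.4 and 15.7 TPM in the Mut libraries, against 9.63, 9.46, 9.80 and 9.33 TPM in the WT libraries (log2 fold change 0.55, SE 0.070, adjusted p = 0.0150). In both the values within each genotype were tight and the groups were apart. Entpd5, a nucleotidase of the endoplasmic reticulum that serves glycoprotein folding, averaged 161 ± 13.0 TPM in Mut and 93.7 ± 13.2 TPM in WT (log2 fold change 0.78, adjusted p = 0.0189). The 123 symbol families with at least 10 tested genes held 58 with no call and 7 with 4 or more. Among these 7, Mcm had 5 calls of 10 tested, and the share called was 23.5% for Col, 14.8% for Snx, 8.41% for Fam, 7.81% for Cyp, 7.66% for Slc and 4.49% for Tmem.

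Receptors and feedback genes of hormone signalling were among the 46 falls. Igfbp2 (chr1:72824503-72852474), a circulating carrier of insulin-like growth factors, measured 58.6, 81.3, 122 and 210.2 TPM in the Mut libraries, against 329, 299, 357 and 346 TPM in the WT libraries (log2 fold change -1.65, SE 0.32, adjusted p = 0.0313). Every Mut library lay below every WT library, and Mut 4 was the closest to WT. Avpr1a (chr10:122448499-122453452), the vasopressin receptor of pericentral hepatocytes, measured 2.55, 2.77, 2.78 and 2.87 TPM in the Mut libraries, against 8.46, 6.01, 11.9 and 10.4 TPM in the WT libraries. The Mut values were tight, and all lay well below the lowest WT value (log2 fold change -1.41, SE 0.17, adjusted p = 0.0114). Lepr (chr4:101717404-101815352), the leptin receptor, measured 0.853, 0.507, 0.403 and 0.714 TPM in the Mut libraries, against 1.46, 2.29, 3.84 and 5.62 TPM in the WT libraries (log2 fold change -1.32, SE 0.27, adjusted p = 0.0362). Socs2, a feedback inhibitor that growth hormone induces, measured 6.76, 9.53, 5.90 and 5.72 TPM in the Mut libraries, against 17.5, 9.37, 22.6 and 25.4 TPM in the WT libraries (log2 fold change -1.24, SE 0.27, adjusted p = 0.0394). Mut 2 and WT 2 overlapped for Socs2.

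Irs2, the insulin receptor substrate whose gene insulin represses, averaged 2.49 ± 0.329 TPM in Mut and 4.31 ± 0.452 TPM in WT (log2 fold change -0.61, SE 0.10, adjusted p = 0.0233). Smad9, a mediator of bone morphogenetic protein signals, averaged 1.33 ± 0.450 TPM in Mut and 3.52 ± 0.861 TPM in WT (log2 fold change -0.96, SE 0.17, adjusted p = 0.0254). Of 31 tested hormone receptors and signalling genes 3 fell (Avpr1a, Lepr and Irs2) and 1 rose (Adra1a, an adrenergic receptor), and the list median was 0.07 but -0.03 with median-ratio scaling. Igfbp2 and Socs2 were the 2 falls among 16 tested growth hormone and STAT5 response genes, whose other members divided into 8 higher and 6 lower.

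Ide (chr19:37268743-37337852), the insulin-degrading enzyme, measured 27.9, 26.3, 26.4 and 24.9 TPM in the Mut libraries, against 39.8, 40.7, 37.8 and 39.0 TPM in the WT libraries (log2 fold change -0.56, SE 0.068, adjusted p = 0.0114). The groups were tight and did not overlap. It was also called lower in heart (log2 fold change -0.99, adjusted p = 0.00475) and muscle (-0.85, adjusted p = 0.0204), but in BAT it read 0.37 (adjusted p = 0.485). Rapgef4 (EPAC2), a cyclic AMP sensor, averaged 41.7 ± 5.99 TPM in Mut and 70.1 ± 6.77 TPM in WT (log2 fold change -0.74, SE 0.11, adjusted p = 0.0190), Scnn1a, a subunit of the epithelial sodium channel, averaged 10.1 ± 1.39 TPM in Mut and 16.4 ± 1.88 TPM in WT (log2 fold change -0.65, adjusted p = 0.0254), and Clec2d, a ligand of an inhibitory natural killer cell receptor, averaged 50.8 ± 10.2 TPM in Mut and 91.0 ± 19.9 TPM in WT (log2 fold change -0.82, adjusted p = 0.0379). Epop, a partner of Polycomb complex PRC2, averaged 1.55 ± 0.182 TPM in Mut and 4.34 ± 0.965 TPM in WT (log2 fold change -1.05, adjusted p = 0.0155). The largest called fall by log2 fold change, Serpina4-ps1, is a pseudogene whose groups overlapped. It measured 2.76, 8.87, 21.2 and 10.2 TPM in the Mut libraries, against 65.8, 20.6, 94.1 and 95.0 TPM in the WT libraries (log2 fold change -2.62, SE 0.58, adjusted p = 0.0406, and 0.0538 with median-ratio scaling), and reads of related serpins can be assigned to it.

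All 78 tested cytosolic ribosomal protein genes were lower on average in Mut, with a median of -0.32 (-0.43 with median-ratio scaling), and 1 passed, Rpl35, at 102 ± 5.23 TPM in Mut and 138 ± 17.7 TPM in WT (log2 fold change -0.43, adjusted p = 0.0464). In 11 of the 78 the Mut libraries lay wholly below the WT libraries, against 2.12% of all genes, and the list mean of WT 1 (-0.31) lay among those of the Mut libraries (-0.36 to -0.26). Host genes of small nucleolar RNAs, whose transcripts share the terminal pyrimidine tract of ribosomal protein transcripts, gave 3 falls among 14 tested (median -0.34, or -0.46 with median-ratio scaling). Zfas1 measured 6.90, 5.95, 7.04 and 10.1 TPM in the Mut libraries, against 11.4, 16.9, 24.0 and 14.2 TPM in the WT libraries (log2 fold change -1.03, SE 0.21, adjusted p = 0.0366), Epb41l4aos averaged 11.8 ± 2.08 TPM in Mut and 22.5 ± 4.56 TPM in WT (log2 fold change -0.87, adjusted p = 0.0248) and Snhg5 averaged 2.11 ± 0.395 TPM in Mut and 4.78 ± 1.81 TPM in WT (log2 fold change -0.85, adjusted p = 0.0492). The groups did not overlap for Zfas1. Ribosomal protein genes have many processed pseudogenes that can share their reads. The share of genes higher in Mut was also smallest in the bin of shortest genes (49.3%), and the part of length in these values was not tested.

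None of 49 complement and coagulation genes, 41 genes of glucose metabolism, 35 of the unfolded protein response, 26 of antigen presentation, 26 p53 targets, 17 clock genes, 24 periportal genes or 74 nuclear genes of oxidative phosphorylation passed. Of the 74 oxidative phosphorylation genes 53 were lower in Mut (67 with median-ratio scaling), whereas 69.0% of all genes were higher. Their median was -0.06 (-0.18 with median-ratio scaling). Of the 35 unfolded protein response genes 33 were higher (25 with median-ratio scaling), with a median of 0.15 (0.03 with median-ratio scaling). Pericentral genes divided into 4 rises (Oat, Aldh1a1 and Rhbg among them) and 2 falls (Avpr1a and Cyp27a1) of 27 tested. With 4.16% of all genes called, lists of this size would hold few calls. Of the 291 distinct genes in the lists with no call just named, 47 were higher and 15 lower at limma's unadjusted p under 0.05, against 2567 (21.4%) and 535 (4.46%) of all genes.

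Whether the genotype effect in liver differed from the mean effect in BAT, heart and muscle was tested in 1 limma model over all 32 libraries, for the 10109 genes that average 1 TPM or more in each tissue. The model took the libraries as independent. Several tissues may come from the same mouse, but such links are not given and were not modelled. There were 516 calls (5.1%), 466 with the liver effect higher (4.61%) and 50 lower (0.495%). Of the 499 liver calls 384 were tested, and 219 were called in the same direction: 208 of 353 rises and 11 of 31 falls. Both tests use the same liver libraries. In limma's test of each tissue alone, BAT had no call at all (0.0% of 12150 genes, with 2369 at an unadjusted p under 0.05, or 19.5%), heart had 18 (0.15%) and muscle 1 (0.0085%). At an unadjusted p under 0.05 heart had 1399 genes (11.6%) and muscle 913 (7.76%). Of the liver calls 3 were called in heart and 1 in muscle. Tceal8, one of the 3 in heart, rose in liver and fell in heart.

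Papss1 had the smallest p (difference 1.24, adjusted p = 2.22e-07), with effects of 0.07 in BAT, -0.05 in heart and 0.24 in muscle. It was followed by Fam241b, a gene of little known function (1.07, adjusted p = 0.000185), Aox1 (0.86, adjusted p = 0.000185) and Igfbp2 (-1.64, adjusted p = 0.00038). Cd36 (1.23), Ccnd1 (1.46), Socs2 (-1.29), Tm7sf2 (-1.04) and Apom (-0.77) also differed, and so did Cyp2b9 (1.97, adjusted p = 0.00163) and Apoa1 (-0.75, adjusted p = 0.00182), which the liver test did not call. Ide did not pass (adjusted p = 0.886), nor did Lgals3bp (0.653), Col3a1 (0.267) or Col1a1 (0.471).

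**Figure D5:**
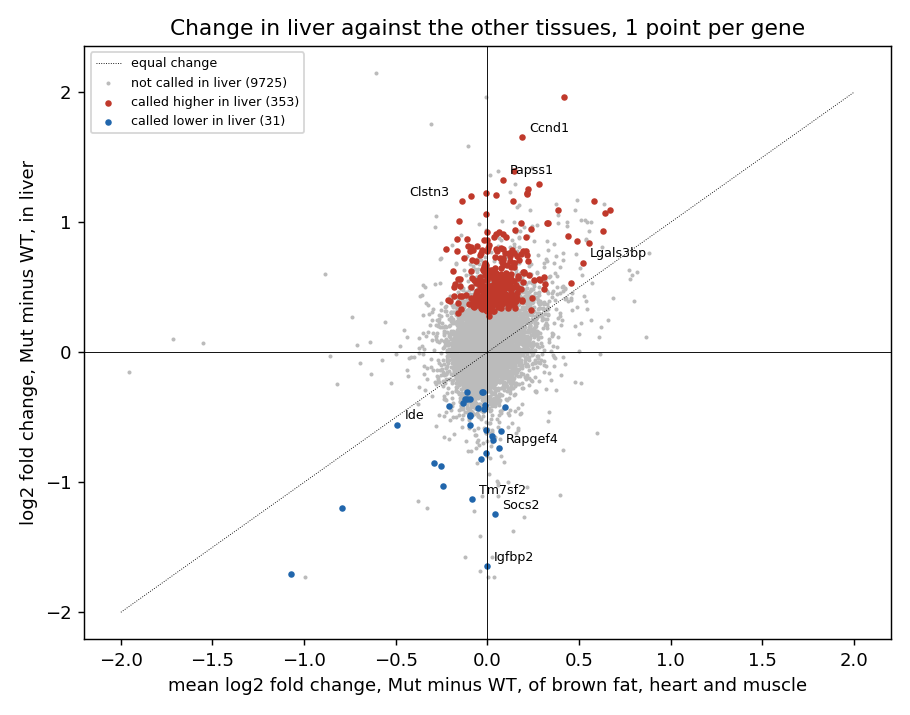
Log2 fold change (Mut minus WT) in liver (y axis) against the mean of BAT, heart and muscle (x axis) for 10109 genes, coloured by the liver call, with equal change as a dotted line. Most liver calls lie near 0 on the x axis, as Papss1, Ccnd1 and Igfbp2 do, while Ide lies near the line of equal change.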

How the data were processed

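RNA of 8 livers (4 Mut and 4 WT mice) was read by strand-specific Illumina sequencing, and the authors quantified transcripts with Salmon, per the submitters' processing notes, in 1 merged table of deposited TPM values. The sources used here give neither Salmon's version nor its index, and TPM keeps no read depth, so counting error is unknown. Of 147493 transcripts 136081 (92.26%) matched GENCODE mouse M21 (GRCm38) and were summed to 51510 genes. Unmatched transcripts held 0.599% to 0.646% of liver TPM. Genes averaging 1 TPM or more across the 8 livers were tested as log2(TPM + 1) with limma 3.58.1 (R 4.3.3, empirical Bayes with an intensity trend) and Benjamini-Hochberg adjustment over all genes tested. Fold changes are on that log2(TPM + 1) scale, which understates changes of low genes, and errors beside means are SD with n = 4. Each liver library is 1 mouse, so the spread among livers is between mice. The liver effect was also set against the mean of the 3 other tissues in 1 limma model of all 32 libraries. That model took the libraries as independent, because links between tissues of the same mouse are not given. Smim30 was tested with an exact two-sided permutation test.

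Alternatives were a pseudocount of 0.1, no filter or a filter at 5 TPM, median-ratio scaling, TPM rescaled without mitochondrial and the 10 most abundant genes, no trend, array weights, 1 fit over all libraries, the replicate number as a block, and leaving out each library. Genes named are the largest, most significant and most abundant calls, up to 6 calls per list, calls in no list, called neighbours of Smim30 and members needed to account for a list or complex. Members and lists were chosen with earlier results of these data known. Promoter windows and motif shares come from a RefSeq table (GRCm38.p6). Tests were checked on simulated data. Python 3.11.15, pandas 2.3.3, numpy 2.4.6, scipy 1.17.1 and matplotlib 3.10.9 were used.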

Additional observations from a re-analysis of the deposited data

Results flagged for a closer look

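For 45 of 68 genes with values given that were measured in every tissue, the genotype effect in liver differed from the mean effect in the 3 other tissues (limma's contrast over 32 libraries, adjusted p under 0.05). Over all genes in that contrast the share was 5.1%. Of the 103 genes with values given, 94 were called in the same liver libraries. A high share was therefore built in, and it does not measure how particular the effects are to liver. Values are liver minus the mean of the other tissues on the log2 scale, for the Mut minus WT effect. Among detoxification and antioxidant genes the differences were Papss1 (1.24), Srxn1 (0.90), Ugdh (0.71), Abcc3 (0.49), Aox1 (0.86) and Cyp2b9 (1.97). In lipid uptake, storage and peroxisomes they were Cd36 (1.23), Gpat3 (0.93), Crot (0.66), Hsd17b4 (0.45), Cidec (1.15), Plin2 (0.79), Pex3 (0.49) and Lonp2 (0.45). Transporters gave Abcg2 (0.57) and Abcb4 (0.43). For the cell cycle and replication they were Ccnd1 (1.46), Mcm2 (0.81), Mcm3 (0.83), Mcm4 (0.69) and Mcm6 (1.01), and for the interferon-induced gene Samd9l 0.67. Matrix, cell surface and membrane-binding genes gave Lamb3 (1.16), Gpc1 (1.00), Sulf2 (1.02), Uap1l1 (1.25), Anxa2 (1.04), Anxa5 (0.79) and Lgals1 (1.01). Proteases and lysosomal enzymes gave Capn1 (0.57) and Ppt1 (0.51), and the remaining higher effects were Scamp5 (0.71), Entpd5 (0.78), Clstn3 (1.29), Tbc1d31 (1.17) and Fam241b (1.07). The effect was lower in liver for Igfbp2 (-1.64), Socs2 (-1.29), Tm7sf2 (-1.04), Cyp51 (-1.08), Apom (-0.77), Apoa1 (-0.75), Zfas1 (-0.79), Rapgef4 (-0.80) and Clec2d (-0.79). Cyp2b9, Cidec, Plin2, Cyp51 and Apoa1 are on this list although limma called none of them in liver alone.

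In 18 of 208 groups of 4 libraries, 1 library stood apart from the other 3 by Dixon's gap criterion for 4 samples, which chance meets in about 1 of 20 groups. Mut 1 read 131 TPM for Cidec (others 47.9 to 61.2), 121 TPM for Abcb4 (others 110.3 to 111), 42.0 TPM for Ifi27l2b (others 28.3 to 29.7), 15.7 TPM for Tbc1d31 (others 6.69 to 8.13) and 8.00 TPM for Scnn1a (others 10.5 to 10.9). Mut 4 read 8.79 TPM for Mcm6 (others 4.15 to 4.73), 14.2 TPM for Capn1 (others 13.0 to 13.1), 129 TPM for Apom (others 80.2 to 87.0) and 42.6 TPM for Slc19a2 (others 36.5 to 37.0). WT 1 read 5.18 TPM for Mcm7 (others 7.40 to 7.51). WT 2 read 4.64 TPM for Ccnd1 (others 3.26 to 3.43), 0.852 TPM for Mcm5 (others 0.667 to 0.673), 66.0 TPM for Anxa5 (others 45.4 to 47.2), 0.821 TPM for Ttc39a (others 0.514 to 0.539) and 2.45 TPM for Fam241b (others 1.36 to 1.44). WT 3 read 3.07 TPM for Samd9l (others 4.44 to 4.69) and 1.54 TPM for Lamb3 (others 3.04 to 3.32), and WT 4 read 5.62 TPM for Cd68 (others 2.33 to 2.68). Mut 2 and Mut 3 stood apart for no gene checked.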

How the results depend on the processing

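The liver counts moved widely (total, higher, lower; 499, 453 and 46 as reported). They were 271, 152 and 119 with median-ratio scaling, 35, 30 and 5 with no filter on low values, and 1902, 1606 and 296 in 1 fit over all libraries, where all tissues share the spread. Array weights called 107 lower. Leaving out 1 library gave 22 to 390 calls, 18 to 351 higher and 4 to 71 lower. The lowest count of higher genes came without WT 3, and the highest count of lower genes came without WT 1. With the replicate number as a block 126, 107 and 19 were called, but same-numbered Mut and WT livers did not deviate together (correlations -0.0544, -0.0443, 0.071 and 0.1405), and Mut 1 to 3 each correlated best with a WT library of another number. The liver against other tissues count (516) was 287 with a filter at 5 TPM, 270 with the block, and 227 to 609 without 1 library. The causes were not tested. Of 94 called genes with values given, 24 lost their call with median-ratio scaling, 78 with no filter, 46 with the block, 70 without Mut 1 and 72 without WT 3, and none changed sign. The Smim30 difference stayed between -0.05 and -0.25 in the 11 alternatives tried (exact permutation p 0.0857 to 0.771). Read depth is unknown, so low genes have no counting error.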
